A study of Homo sapiens with 12 samples.

Results

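The cytosolic ribosomal protein genes are the genes for the protein components of the ribosome outside mitochondria. They were taken from the deposited gene table by symbol: RPL or RPS followed by a number, with or without a final A, L or X, together with RPLP0, RPLP1, RPLP2 and RPSA. This gave 82 of 51838 genes in the table, 49 of the large subunit and 33 of the small subunit. RNA was sequenced in 2 human breast cancer cell lines, HCC70 and MDA-MB-231, both labelled basal-like. HCC70 cells grown in RPMI received 100 nM dexamethasone, or an equal volume of its ethanol vehicle, for 4 h. MDA-MB-231 cells grown in DMEM received the same 2 treatments for the same time, and each of the 4 groups had 3 libraries, 12 in all. Each line is a single established line, and both media contained fetal bovine serum. Because each line had its own medium, differences between the lines cannot be told apart from differences between the media.

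A ribosome is built from a fixed set of these proteins, most of them in a single copy, and some members are paralogs that can take a partner's place. Most of their mRNAs begin with a cytosine followed by a run of pyrimidines, the terminal oligopyrimidine or TOP tract. Through it the growth kinase mTOR and the RNA-binding protein LARP1 control when these mRNAs are translated and stored, so mRNA level and protein output need not move together. MYC and RNA polymerase I factors drive ribosome production as a whole. Dexamethasone is a synthetic glucocorticoid; its receptor, the product of NR3C1, enters the nucleus on binding it and switches target genes on or off.

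The TOP tract was the sequence feature that the members shared and that the choice by symbol did not use. In the RefSeq promoter table (GRCh38.p14), 64 of the 82 members had an entry. A tract, counted as a C within 3 bases of an annotated start that opens a run of at least 5 pyrimidines on the gene's strand, was present in 52 of them, or 81.2%, against 4374 of 27305 genes with an entry, or 16%. A gene with several annotated starts was counted if any of them had the tract, for members and other genes alike; 10 members had more than 1 start. The windows that follow hold 12 bases before the annotated start and 18 from it onward, with the tract in capitals. They are shown for members with the strongest differences described here, and for members that lack the tract.
RPS13: cactctcgctCTCCTTTCgttgcctgatcg
RPL34: ggcttttttCTTCCTCTTCCggggacgttg
RPL27A: gcgaaggccttCCTTTTTCgtctgggctgc
RPL14: cgggtcttcttCCTTCTCgcctaacgccgc
RPS6: cggaagttggCCCTCTTTTCCgtggcgcct
RPL36A: gcctcgcggtttCTTTCTTTCCgcgccgat
RPS27: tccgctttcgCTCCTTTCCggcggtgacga
RPS27L: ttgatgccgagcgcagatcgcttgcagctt
RPS4X: gtctccagccccaatttctacgcgcaccgg
RPS29: cgagcgcgcagctggcagcggtggttgttt

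These windows lie at chr11:17077650-17077679 on the minus strand for RPS13, chr4:108620564-108620593 on the plus strand for RPL34, and chr11:8682780-8682809 on the plus strand for RPL27A. That of RPL14 is chr3:40457327-40457356 on the plus strand, that of RPS6 chr9:19380219-19380248 on the minus strand, and that of RPL36A chrX:101390999-101391028 on the plus strand. RPS27 lies at chr1:153990750-153990779 on the plus strand and RPS27L at chr15:63157460-63157489 on the minus strand. RPS4X lies at chrX:72277231-72277260 and RPS29 at chr14:49598693-49598722, both on the minus strand. RPS27 and its paralog RPS27L, a gene known as a target of the tumour suppressor p53, differed in this feature: RPS27 had the tract and RPS27L did not. Over the 300-base promoter entries, from 250 bases before to 50 after the start and on both strands, the E-box CACGTG, the letters read by MYC, was found in 4 of 64 members (6.25%) and in 8.77% of all genes. The full glucocorticoid element, AGAACA and TGTTCT set 3 bases apart, was searched with no mismatch allowed. It was in 0 of 64 members and in 1 of 27305 genes, a match too rare to tell members from other genes. AGAACA, which the full element contains, was in 10 of 64 (15.6%) and in 17.5% of all genes. These matches describe letters in fixed windows at annotated starts, not binding.

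Libraries held 106345287 to 123218973 counts. In MDA-MB-231, dexamethasone 2 and vehicle 1 stood apart from the others of their groups: the mean chi-square per gene between replicates was 120.0 and 73.0 for the pairs with dexamethasone 2 and 14.6 for the pair without it, and 96.8 and 195 for the pairs with vehicle 1 and 40.8 for the pair without it. Of the 82 members, 80 passed the filter on low counts that left 28141 genes for testing. The dexamethasone response was present in both lines: FKBP5, a chaperone gene and standard glucocorticoid target, averaged 218 ± 1.76 CPM (counts per 1e6 counts, scaled by TMM factors) in HCC70 with dexamethasone and 35.2 ± 1.10 CPM in HCC70 vehicle, and 1119 ± 46.9 CPM against 56.2 ± 5.48 CPM in MDA-MB-231 (SD, n = 3 each). The basal keratin gene KRT5 stood at 2595 CPM in HCC70 vehicle and at 0.804 CPM in MDA-MB-231 vehicle, so this defining marker of the labelled subtype was near 0 in MDA-MB-231. Whether replicates came from separate cultures is not said in the labels, and the p-values cover only the variation among these libraries, which may be technical. Reads were not stranded, 51 members overlap exons of another gene in the annotation, and many have near-identical pseudogenes, so counts of single members can hold reads of other genes.

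The members together took a larger share of the counts in MDA-MB-231 than in HCC70. Their share was 1.27%, 1.37% and 1.33% in the HCC70 dexamethasone libraries, against 1.46%, 1.53% and 1.40% in HCC70 vehicle. It was 2.67%, 2.29% and 2.46% in the MDA-MB-231 dexamethasone libraries, against 2.11%, 2.07% and 2.36% in MDA-MB-231 vehicle. In HCC70 every dexamethasone library lay below every vehicle library in this share of raw counts. The TMM factors there were 0.908, 0.934 and 0.934 with dexamethasone and 0.987, 0.986 and 0.977 in vehicle. After TMM scaling these groups overlapped in the members' median log2 CPM, at 6.24, 6.34 and 6.29 against 6.39, 6.48 and 6.30. In MDA-MB-231 the groups overlapped in the share itself, because dexamethasone 2 lay below vehicle 3. The share of counts from genes encoded in mitochondria moved beside it: it was 2.73%, 2.82% and 2.75% in HCC70 dexamethasone libraries, against 3.83%, 3.47% and 3.51% in HCC70 vehicle, without overlap. It was 3.65%, 3.02% and 3.44% in MDA-MB-231 dexamethasone libraries, against 2.50%, 2.92% and 3.89% in MDA-MB-231 vehicle, with overlap. Its part in the members' shares was not tested. The large subunit members held 0.845 ± 0.0263% of counts in HCC70 with dexamethasone and 0.922 ± 0.0416% in HCC70 vehicle, and the small subunit members 0.479 ± 0.0228% and 0.541 ± 0.0260% (SD, n = 3 each). In raw counts, the HCC70 groups did not overlap in the large subunit share (0.821% to 0.873% with dexamethasone, against 0.880% to 0.963% in vehicle). Nor did they overlap in the small subunit share of raw counts (0.453% to 0.497%, against 0.516% to 0.568%). In these bulk libraries, a change in the make-up of the cells and a change in RNA per cell cannot be told apart.

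**Figure D1:**
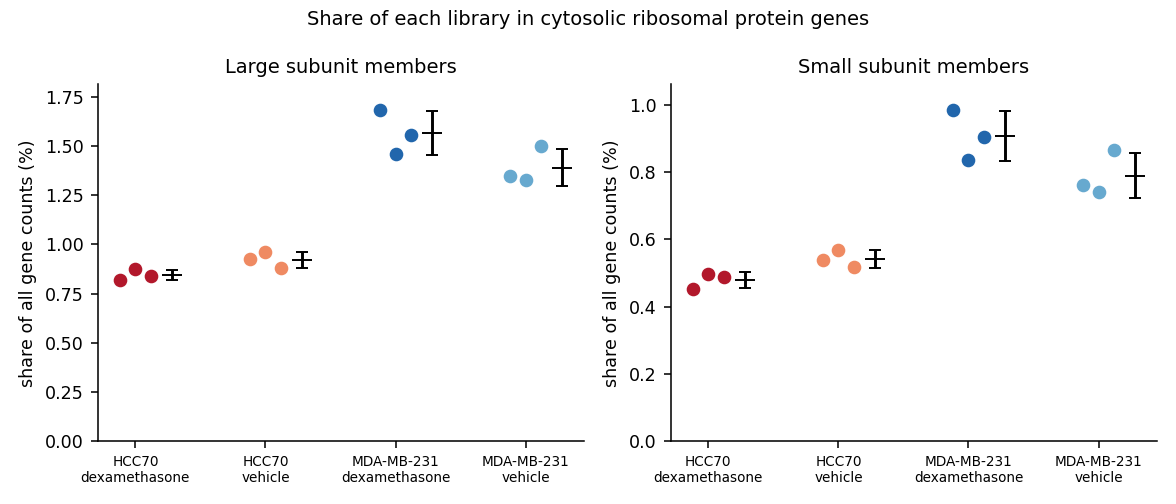
Share of all gene counts, in percent, that fell in large subunit members (left) and small subunit members (right) in each library; points are the 3 libraries of a group, and bars are the mean with SD. HCC70 libraries sit below MDA-MB-231 libraries in both panels, with 1.27% to 1.53% of counts in all members in HCC70 and 2.07% to 2.67% in MDA-MB-231.

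Levels differed widely between members. Among the 80 members that passed the filter, the mean level ran from 13.1 to 1512 CPM in HCC70 with dexamethasone and from 13.3 to 1526 CPM in HCC70 vehicle. It ran from 6.91 to 2138 CPM in MDA-MB-231 with dexamethasone and from 6.25 to 2013 CPM in MDA-MB-231 vehicle. The 5 most abundant held 36.3% of the members' counts in HCC70 vehicle and 29.4% in MDA-MB-231 vehicle. Divided by the length of all exons joined, RPS2, a protein of the small subunit near the mRNA entry, was highest, at 632 CPM per kilobase in HCC70 vehicle and 549.8 in MDA-MB-231 vehicle. RPL8, a large subunit protein close to the site of peptide bond formation, stood at 515 and 502, and RPLP0, the base of the stalk that recruits translation factors, at 327 and 503 on that scale. Divided by coding length, a measure added after the data were seen, RPS2, RPL8 and RPLP0 led in HCC70 vehicle, at 1736, 1442 and 1374 CPM per kilobase. In MDA-MB-231 vehicle RPLP0 led at 2116, followed by RPS18 at 1686 and RPL41 at 1575, with RPS2 at 1509 and RPL8 at 1407. Averaged over all libraries, RPL41, the shortest of the proteins, stood in place 17 by exons and place 4 by coding length, and RPS12 in place 16 and place 58. At the low end by CPM stood RPS27L, RPL36A and RPL39L, with RPL36A at 14.1 ± 0.817 CPM in HCC70 vehicle and 17.7 ± 2.61 CPM in MDA-MB-231 vehicle (SD, n = 3 each).

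Both members that did not pass the filter are tissue-restricted paralogs. RPL3L, the form of RPL3 known from heart and skeletal muscle, had 3 to 13 counts per library. RPL10L, the form of RPL10 known from testis, had 1, 2 and 2 counts in MDA-MB-231 dexamethasone libraries and 4, 1 and 2 counts in MDA-MB-231 vehicle libraries. RPL10L had 0 counts in all 6 HCC70 libraries, which allows up to 0.00898 CPM over the dexamethasone group and 0.00865 CPM over the vehicle group at 3 counts, for counting error only. Their common partners were abundant: RPL3 averaged 523 ± 3.57 CPM in HCC70 with dexamethasone and 540 ± 7.96 CPM in HCC70 vehicle, and RPL10 697 ± 16.3 and 764 ± 43.3 CPM (SD, n = 3 each).

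In HCC70, dexamethasone moved no single member past the threshold, while nearly all of them sat slightly lower. By edgeR's quasi-likelihood test with Benjamini-Hochberg adjustment over all tested genes (threshold 0.05), 0 of 80 rose, where 2.55% of all tested genes rose, and 0 fell, where 1.40% of all genes fell. The log2 fold change was below 0 in 72 of the 80, with a median of -0.13, beside -0.01 for all tested genes. At an unadjusted p under 0.05 there were 14 members, all lower, where 9.43% of all tested genes were lower at that p, and DESeq2's Wald test called 0 in either direction. In 18 members (22.5%) every dexamethasone library lay below every vehicle library, which 15.3% of all tested genes did. In 3 members, RPL8 and RPL10A among them, every dexamethasone library lay above, which 17.1% of all genes did; RPL10A is named after its values were seen. With HCC70 fitted alone, 12 members fell, and 7.13% of all genes tested in that fit fell. With library size as the only scaling, the median of all genes moved to -0.10 and that of the members to -0.22, with 0 members called and 552 rises and 762 falls over all genes, where TMM gave 719 and 395.

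RPS29, a small zinc-binding protein of the small subunit, had the most negative value in HCC70. It stood at 15.6, 17.3 and 16.7 CPM with dexamethasone, against 23.7, 23.4 and 17.2 CPM in vehicle. The groups overlapped, since vehicle 3 lay below dexamethasone 2, and the log2 fold change of -0.38 had an SE of 0.13 and an adjusted p of 0.157. RPL39L, a paralog of the exit tunnel protein RPL39, had the lowest adjusted p of the members, 0.125. It stood at 14.9, 15.9 and 14.8 CPM with dexamethasone, against 18.3, 18.8 and 17.1 CPM in vehicle. These groups did not overlap, and the log2 fold change was -0.25 ± 0.08 (SE). RPLP0, which is often used as a reference gene for expression assays, had 1277, 1315 and 1296 CPM with dexamethasone and 1308, 1361 and 1250 CPM in vehicle, a log2 fold change of -0.01 ± 0.06 (SE) with overlapping groups. RPL13A, another common reference gene, had a log2 fold change of 0.04 ± 0.07 (SE), and RPSA, known also as the laminin receptor precursor, -0.16 ± 0.08 (SE, adjusted p 0.289).

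In MDA-MB-231 the members lay on the other side. Dexamethasone raised 11 of 80 (13.8%), where 6.65% of all tested genes rose, and 0 fell, where 7.96% of all genes fell, by the same test. The log2 fold change was above 0 in 78 of the 80, with a median of 0.20, beside -0.01 for all tested genes. At an unadjusted p under 0.05 there were 55 members, all higher, where 13.3% of all tested genes were higher at that p. DESeq2's Wald test called 23 higher, with 7.86% of all genes, and 0 lower, with 10.01%. In 28 members (35%) every dexamethasone library lay above every vehicle library, which 13.9% of all genes did, and in 0 members every one lay below, which 13.3% of all genes did. The 11 were 5 of the large subunit, RPL7, RPL10, RPL15, RPL21 and RPL36A, and 6 of the small subunit, among them RPS3A, RPS4X, RPS6, RPS23 and RPS27L. The changes were small, at most 1.28-fold.

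RPL36A, a large subunit protein near the exit site of transfer RNA, had the largest rise. It stood at 25.5, 21.8 and 20.9 CPM with dexamethasone, against 18.1, 14.9 and 20.1 CPM in vehicle, a log2 fold change of 0.36 ± 0.10 (SE, adjusted p 0.0311). Dexamethasone 3 lay just above vehicle 3, so the groups did not overlap but nearly met. RPS4X, the X-linked form of a small subunit protein, had the lowest adjusted p, 0.0148. It stood at 699.8, 597 and 639 CPM with dexamethasone, against 518, 482 and 576 CPM in vehicle, a log2 fold change of 0.30 ± 0.07 (SE). Its groups did not overlap either. RPL7, an RNA-binding protein of the large subunit, stood at 115, 90.9 and 100.3 CPM with dexamethasone, against 81.1, 77.2 and 89.6 CPM in vehicle, with a log2 fold change of 0.31 ± 0.09 (SE, adjusted p 0.0294). RPS3A, a protein of the small subunit platform, rose by 0.31 ± 0.10 on the log2 scale (SE, adjusted p 0.0461), although dexamethasone 2 at 102 CPM lay below vehicle 3 at 104 CPM. RPS27L, the p53 target, rose by 0.27 ± 0.08 on the log2 scale (SE, adjusted p 0.0310), also with overlapping groups: dexamethasone 2 stood at 23.9 CPM and vehicle 3 at 24.1 CPM. RPS6, the small subunit protein phosphorylated downstream of mTOR, stood at 437, 375 and 402 CPM with dexamethasone and 343, 325 and 362 CPM in vehicle, without overlap (log2 fold change 0.24 ± 0.07 SE, adjusted p 0.0383).

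The rises in MDA-MB-231 rested on few libraries. Leaving out an MDA-MB-231 library turned the count of 11 into 0 for dexamethasone 1, 0 for vehicle 2, 2 for dexamethasone 3 and 3 for vehicle 1, and into 49 for dexamethasone 2 and 41 for vehicle 3. Over all genes the rises numbered 1870 with every library, 2898 without dexamethasone 2 and 2389 without vehicle 3, and the falls 2240, 3554 and 3373. The rises over all genes numbered 1176 (4.10%) without dexamethasone 1 and 1388 (4.84%) without vehicle 2. They numbered 1189 (4.15%) without dexamethasone 3 and 1385 (4.83%) without vehicle 1. The members' shares in these 4 fits were 0%, 0%, 2.5% and 3.75%. Without both dexamethasone 2 and vehicle 1, the libraries that stood apart, 38 members rose, with 8.68% of all genes. HCC70 libraries entered through the filter, the scaling and the estimate of the spread, which both lines shared and whose parts were not separated. Members called numbered 6 (7.5%) without HCC70 dexamethasone 2, dexamethasone 3 or vehicle 2, where 5.57%, 5.52% and 5.66% of all genes rose. They numbered 7 (8.75%) without HCC70 vehicle 1, with 5.81%, 9 (11.25%) without dexamethasone 1, with 5.89%, and 13 (16.25%) without vehicle 3, with 6.11%. With MDA-MB-231 fitted alone 0 members rose, where 4.32% of all genes rose. None of the 11 passed in every one of the fits that left out a library. The median log2 fold change of the members stayed between 0.15 and 0.29 in those fits.

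**Figure D2:**
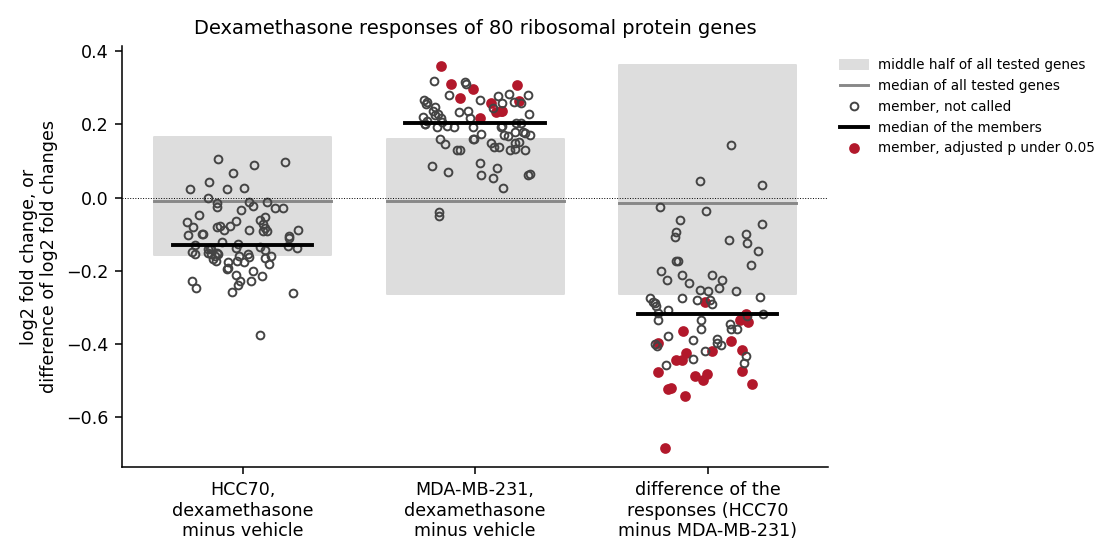
Log2 fold change of each of the 80 tested members for dexamethasone against vehicle in HCC70 and in MDA-MB-231, and the difference of these (HCC70 minus MDA-MB-231); filled points passed an adjusted p of 0.05, black lines are the members' medians, and grey bands with lines are the interquartile range and median of all tested genes. The members' medians lie at -0.13, 0.20 and -0.32, and the members' interquartile range is narrower than that of all genes in each column.

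The responses of the lines were then compared by the interaction of line and treatment, which used all 4 groups. The response was lower in HCC70 than in MDA-MB-231 for 23 of 80 members (28.8%), where 5.09% of all tested genes had a lower one. It was higher for 0 members, where 6.96% of all genes had a higher one. At an unadjusted p under 0.05 there were 60 members, all lower, where 13.9% of all tested genes were lower at that p. DESeq2's Wald test gave 38 lower, with 7.36% of all genes, and 0 higher, with 10.68%. The median difference was -0.32 on the log2 scale, beside -0.01 for all tested genes. Of the members, 71 (88.8%) were lower with dexamethasone in HCC70 and higher in MDA-MB-231, 7 were higher in both lines, 1 was lower in both, and 1 was higher in HCC70 and lower in MDA-MB-231. Of the 23, 14 belong to the large subunit and 9 to the small subunit. Across the 80 members the responses in the lines, which share no control libraries, correlated negatively (Pearson r -0.58, Spearman rho -0.56), as a description over genes that are not independent replicates.

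RPS29 had the largest difference, -0.69 ± 0.18 (SE, adjusted p 0.0338). In MDA-MB-231 it stood at 58.1, 47.7 and 49.8 CPM with dexamethasone, against 43.6, 35.3 and 46.7 CPM in vehicle, without overlap, and its HCC70 values are given above. RPS20, a small subunit protein, differed by -0.54 ± 0.16 (SE, adjusted p 0.0449). It stood at 144, 163 and 133 CPM with dexamethasone against 189, 189.9 and 149 CPM in vehicle in HCC70, and at 189, 156 and 167 CPM against 139.9, 125 and 156 CPM in MDA-MB-231. The groups overlapped in both lines, and neither line's own change passed. RPS3A (-0.53 ± 0.14), RPL37 (-0.52 ± 0.13) and RPL24, which helps join the subunits (-0.51 ± 0.15), followed (log2 difference ± SE), with adjusted p of 0.0260, 0.0237 and 0.0387. RPL37, which is known to bind the p53 regulator MDM2, stood at 81.3, 89.3 and 85.6 CPM against 101.1, 110.4 and 91.1 CPM in HCC70, and at 128, 108 and 114 CPM against 95.0, 85.5 and 108 CPM in MDA-MB-231, dexamethasone before vehicle in each. Its groups did not overlap in either line.

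The 23 calls moved with single libraries too. Leaving out an HCC70 library gave 0 calls for vehicle 1, 1 for vehicle 2, 1 for dexamethasone 1, 3 for dexamethasone 3 and 9 for dexamethasone 2. Leaving out an MDA-MB-231 library gave 1 call for dexamethasone 1, 2 for vehicle 2, 4 for dexamethasone 3, 12 for vehicle 1, 51 for vehicle 3 and 57 for dexamethasone 2. Over all genes the lower responses numbered 1431 with every library, 2351 without MDA-MB-231 vehicle 3 and 2667 without MDA-MB-231 dexamethasone 2. In the 5 HCC70 fits above, in order, they were 2.4%, 2.8%, 2.7%, 2.8% and 3.2% of all genes. The members' shares there were 0%, 1.25%, 1.25%, 3.75% and 11.25%. Without HCC70 vehicle 3 there were 34 calls, with 5.3% of all genes. Without MDA-MB-231 dexamethasone 1, vehicle 2, dexamethasone 3 and vehicle 1 the shares of all genes were 2.7%, 3.3%, 2.6% and 3.8%. Without both MDA-MB-231 dexamethasone 2 and vehicle 1, 53 members had a lower response, with 9.12% of all genes. With library size as the only scaling there were 46 members, with 8.88% of all genes. The median of all genes then moved by -0.11 to -0.13 while that of the members was -0.43. No member passed in every fit, while the members' median stayed between -0.39 and -0.26 when any 1 library was left out.

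GC content moved with treatment in HCC70, while in MDA-MB-231 the libraries overlapped. Over 14934 genes with a mean above 2 CPM, the Spearman rho between GC content and a library's deviation from its line's mean was 0.52, 0.40 and 0.37 in HCC70 dexamethasone libraries, against -0.62, -0.33 and -0.16 in HCC70 vehicle libraries. It was -0.53, 0.27 and -0.52 in MDA-MB-231 dexamethasone libraries, against 0.69, 0.17 and -0.25 in MDA-MB-231 vehicle libraries. Among the members, log2 fold change and GC content gave rho 0.39 in HCC70 and -0.49 in MDA-MB-231 (80 genes from the same libraries). The members with the lowest GC content, 27 genes from 38.1% to 47.7%, had medians of -0.16 in HCC70 and 0.24 in MDA-MB-231, against -0.08 and 0.08 for all 5553 genes in that range. The 27 with the highest, 52.3% to 63.6%, had medians of -0.07 and 0.15, against 0.08 and -0.14 for all genes in that range. Of the 11 members that rose in MDA-MB-231, 7 were in the lowest range, 4 in the middle and 0 in the highest. With an offset that removes GC and length trends from each library, 20 members rose in MDA-MB-231, with 8.74% of all genes, 0 passed in HCC70, and 30 had a lower response in HCC70, with 6.81% of all genes. The members' medians were then -0.11 in HCC70, 0.18 in MDA-MB-231 and -0.28 for the difference.

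**Figure D3:**
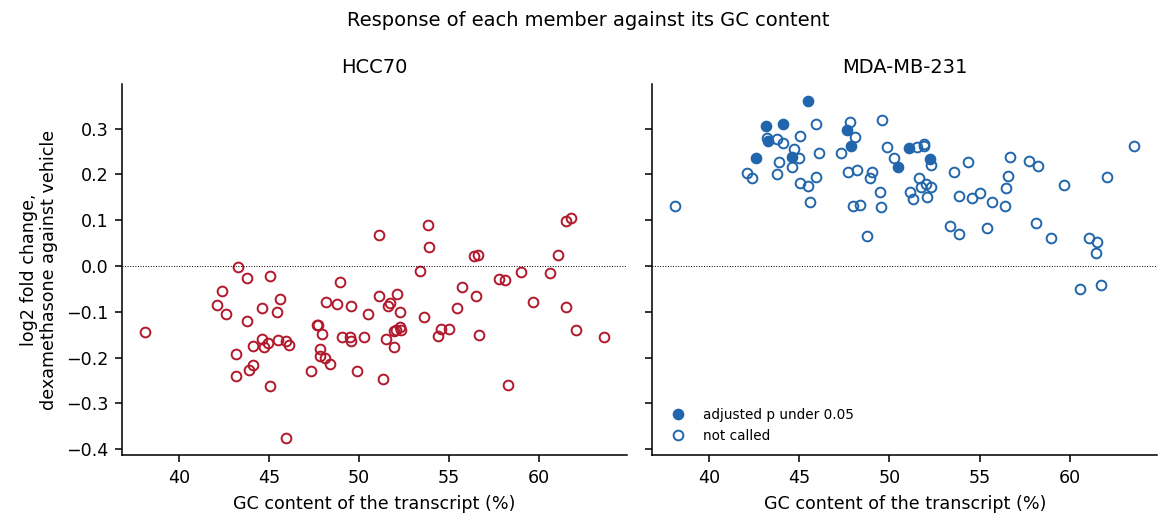
Log2 fold change of each of the 80 tested members for dexamethasone against vehicle, plotted against the GC content of its transcript in percent, in HCC70 (left) and MDA-MB-231 (right); filled points passed an adjusted p of 0.05. Members low in GC lie lowest in HCC70 (rho 0.39) and highest in MDA-MB-231 (rho -0.49).

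The lines differed far more than the treatments. In vehicle, 65 of 80 members (81.2%) were lower in HCC70 than in MDA-MB-231, where 40.0% of all tested genes were lower, and 8 (10%) were higher, where 39.2% were higher. The median log2 difference was -0.76, beside -0.03 for all tested genes, and was -0.76 in the large and -0.71 in the small subunit. In 65 members every HCC70 library lay below every MDA-MB-231 library, which 40.4% of all genes did, and in 5 every one lay above, which 39.9% did. More than a 2-fold difference was found for 31 members that were lower in HCC70 and for 1 that was higher. The share of all tested genes past 2-fold was not counted. Their interquartile range on the log2 scale, where 2-fold is 1, was -0.97 to 1.01, and that of the members -1.18 to -0.33. All 65 lower calls and 3 of the 8 higher ones held in every alternative fit and with any 1 library left out.

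The lowest in HCC70 was RPS13, a protein of the small subunit's contact face with the large one. It stood at 25.9, 27.0 and 22.8 CPM in HCC70 vehicle, against 130.1, 122 and 154 CPM in MDA-MB-231 vehicle, which is 5.37-fold lower in HCC70 (log2 difference -2.43 ± 0.09 SE, adjusted p 9.64e-12). The groups were far apart. RPL34, a large subunit protein, stood at 25.7, 26.6 and 22.7 CPM in HCC70, against 93.9, 86.8 and 109 CPM in MDA-MB-231, and was 3.87-fold lower. RPL27A, RPL14 and RPL26 of the large subunit were 3.79-fold, 3.78-fold and 3.73-fold lower, with log2 differences of -1.92 ± 0.09, -1.92 ± 0.11 and -1.90 ± 0.10 (SE) and adjusted p of 1.18e-10, 6.29e-10 and 2.87e-10. RPL26 is known to bind the p53 mRNA. Of the stalk proteins, RPLP2 was 2.98-fold lower (-1.58 ± 0.09 SE), RPLP0 1.54-fold lower (-0.62 ± 0.06 SE), and RPLP1 had a log2 difference of 0.08 ± 0.08 (SE, adjusted p 0.351). RPLP1 and RPLP2 pair as dimers on the stalk. RPLP1 stood at 133, 139 and 119 CPM in HCC70 against 122, 115 and 132 CPM in MDA-MB-231, while RPLP2 stood at 40.8, 44.7 and 36.9 CPM against 125, 109.7 and 130.01 CPM.

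RPL39L and RPS6 stood highest in HCC70 relative to MDA-MB-231. RPL39L had 18.3, 18.8 and 17.1 CPM in HCC70 vehicle, against 6.18, 5.86 and 6.70 CPM in MDA-MB-231 vehicle, and was 2.89-fold higher (log2 difference 1.53 ± 0.08 SE, adjusted p 5.04e-10). Its partner RPL39 went the other way, at 20.7, 19.7 and 15.7 CPM in HCC70 against 33.3, 29.8 and 36.0 CPM in MDA-MB-231 (-0.82 ± 0.11 SE, adjusted p 7.11e-06). Both have the same coding length, 153 bases. Per kilobase of coding length, RPL39L stood at 118 CPM in HCC70 vehicle and 40.8 CPM in MDA-MB-231 vehicle, and RPL39 at 122 and 216 CPM. RPS6 had 691, 714 and 653 CPM in HCC70 against 343, 325 and 362 CPM in MDA-MB-231, and was 1.997-fold higher (1.00 ± 0.07 SE, adjusted p 8.27e-09). RPL22, a large subunit protein described as a tumour suppressor, was higher by 0.35 ± 0.07 (SE, adjusted p 0.000536). RPS20, RPL13, RPL10, RPS27 and RPS2 were the other members called higher, by 0.33, 0.24, 0.22, 0.21 and 0.20 on the log2 scale, and they lost the call in some fits. Without HCC70 vehicle 2 or without MDA-MB-231 vehicle 2 the higher calls numbered 3, as with library size alone. RPS27 kept its call in 3 of 12 fits that left out a library, while its paralog RPS27L was lower by -0.70 ± 0.08 (SE, adjusted p 1.37e-06). With the GC and length offset RPS2 and RPL13 had differences of -0.11 and -0.04.

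**Figure D4:**
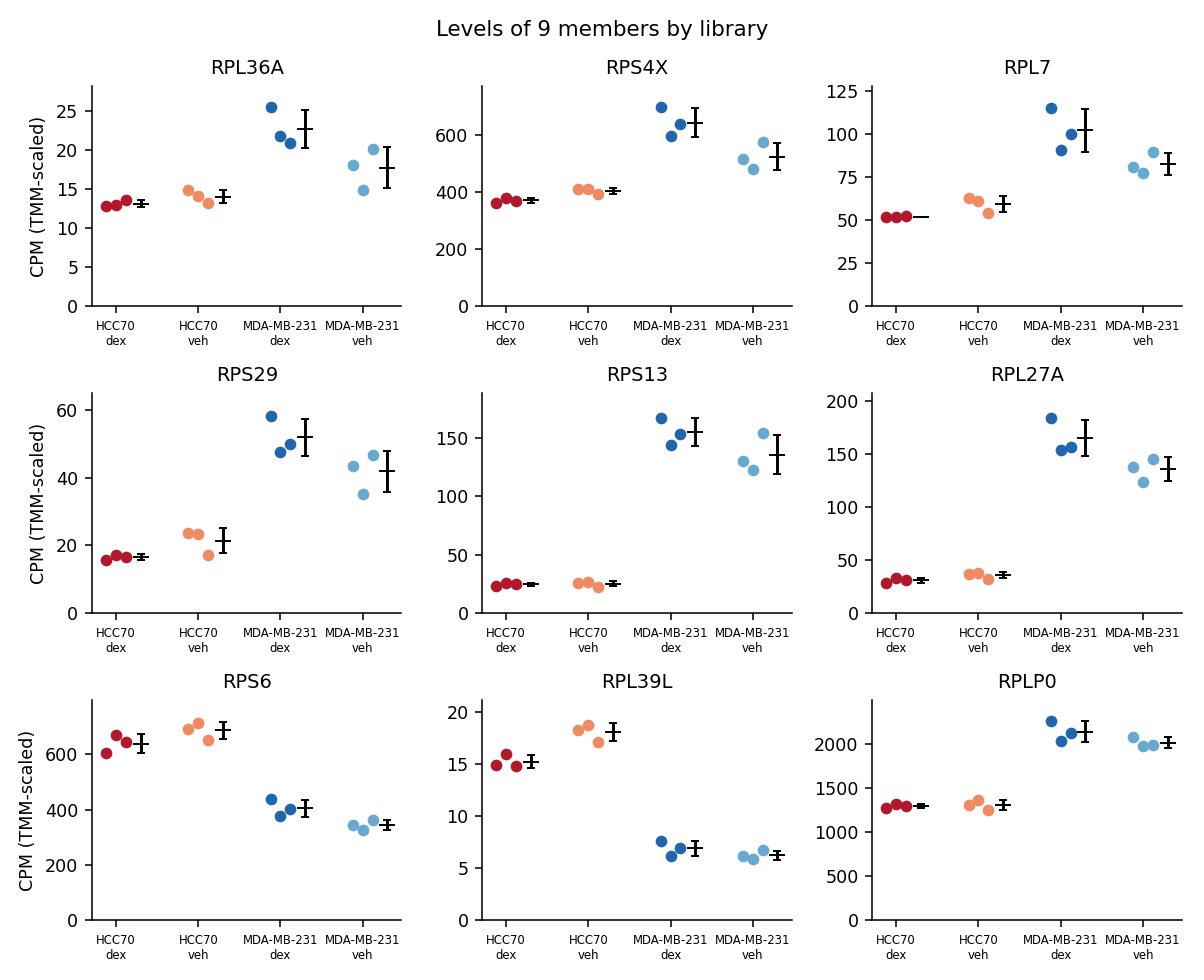
Levels of 9 members in each library, in TMM-scaled CPM on linear axes from 0 (dex, dexamethasone; veh, vehicle); points are the 3 libraries of a group and bars the mean with SD. RPS13 and RPL27A are several-fold lower in HCC70, RPS6 and RPL39L are higher there, and the treatment changes are small beside the line differences.

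The line difference was uneven over the chromosomes. On the 12 chromosomes with at least 4 tested members, which carry 65 of them, the members' median was below the median of all tested genes of the chromosome on 10. On chromosome 11 the 5 members RPL27A, RPLP2, RPS3, RPS13 and RPS25 had a median of -1.62 (from -2.43 to -1.15), where all 1558 tested genes there had a median of -0.63. On chromosome 17 the 6 members RPL19, RPL23, RPL23A, RPL26, RPL27 and RPL38 lay between -1.90 and -1.35, with a median of -1.63, where all 1313 genes had -0.52. On chromosome 1 the 5 members, RPL5, RPL11, RPL22 and RPS27 among them, had a median of -0.14 and ran from -0.33 to 0.35, where all 2865 genes had 0.45. Chromosome 3 held the widest spread, from RPL14 at -1.92 to RPL39L at 1.53. Over the 12 chromosomes the members' medians and those of all genes gave a Spearman rho of 0.52, a description in which members and other genes share the libraries. DNA copy number of the lines was not analysed here.

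**Figure D5:**
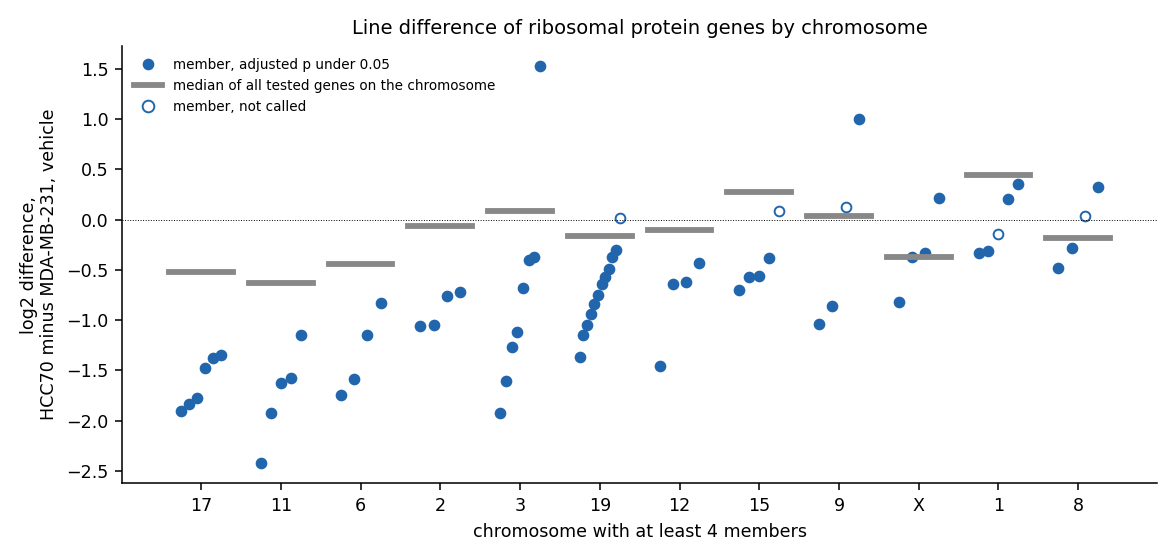
Log2 difference between HCC70 and MDA-MB-231 in vehicle for each tested member on the 12 chromosomes with at least 4 of them, ordered by the members' median; filled points passed an adjusted p of 0.05, and grey bars are the median of all tested genes on the chromosome. Members on chromosomes 17 and 11 are lowest in HCC70 (medians -1.63 and -1.62), and those on chromosome 1 (-0.14) lie nearest to no difference together with those on chromosome 8 (-0.12).

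Members with and without the TOP tract, as counted above, are given side by side, with no test of the difference. The count depends on the annotated start. RPL4 and RPL9, counted as without, have a pyrimidine run that begins more than 3 bases after it. The 52 tested members with a tract had a median of -0.11 in HCC70 and 0.20 in MDA-MB-231, and the 11 tested members without one -0.13 and 0.19. Between the lines in vehicle the medians were -0.90 with a tract and -0.97 without. All 11 without a tract were lower in HCC70, and of the 52 with one, 45 were lower and 5 higher. Of all tested genes, 40.0% were lower and 39.2% higher. With dexamethasone in MDA-MB-231, 6 of the 52 and 3 of the 11 rose, where 6.65% of all tested genes rose. The response was lower in HCC70 for 11 of the 52 and 4 of the 11, where it was lower for 5.09% of all tested genes. The 17 tested members with no promoter entry had medians of -0.16 in HCC70, 0.18 in MDA-MB-231 and -0.28 between the lines.

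Of 7 ribosomal proteins and relatives of them filed under other symbols, 6 were lower in HCC70 vehicle than in MDA-MB-231 vehicle and 0 higher. Of all tested genes, 40.0% were lower and 39.2% higher. The lowest of the 7 was RPL7L1, a nucleolar relative of RPL7, at 123 ± 5.06 CPM in HCC70 vehicle and 935 ± 52.96 CPM in MDA-MB-231 vehicle (log2 difference -2.92 ± 0.06 SE, n = 3 each, edgeR adjusted p 1.55e-14). GNB2L1, the scaffold protein RACK1 of the small subunit, was lower by -1.20 ± 0.06 (SE). Dexamethasone moved 0 of the 7 past the threshold in either line. The ribosomal protein pseudogenes, 381 in the table and 200 tested, are mostly copies without introns, near-identical in sequence to members, so that their reads cannot be told apart with certainty. Of the 200, 138 were lower and 23 higher in HCC70 vehicle than in MDA-MB-231 vehicle, with a median of -0.98. The shares of all tested genes were 40.0% lower and 39.2% higher. With dexamethasone 1 rose and 0 fell in HCC70, where 2.55% of all tested genes rose and 1.40% fell. In MDA-MB-231 7 pseudogenes rose and 3 fell, where 6.65% of all tested genes rose and 7.96% fell.

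Of 28 genes of ribosome biogenesis and RNA polymerase I, 8 rose and 0 fell with dexamethasone in HCC70, where 2.55% of all tested genes rose, and 2 rose and 1 fell in MDA-MB-231, where 6.65% rose. Their median log2 fold change was 0.17 in HCC70 and 0.07 in MDA-MB-231, beside -0.01 for all tested genes in each line. RRN3, the factor that brings RNA polymerase I to ribosomal DNA, averaged 114 ± 6.70 CPM with dexamethasone and 74.98 ± 8.605 CPM in vehicle in HCC70 (log2 fold change 0.60 ± 0.09 SE, adjusted p 0.000872). POLR1B, a subunit of that polymerase, rose by 0.42 ± 0.08 and RRS1, a ribosome assembly factor, by 0.41 ± 0.08 on the log2 scale (SE, adjusted p 0.00581 and 0.0138). In MDA-MB-231 RRN3 had a log2 fold change of -0.23 ± 0.09 (SE, adjusted p 0.094), and the responses differed by 0.83 ± 0.12 (SE, adjusted p 0.000601). In vehicle 25 of the 28 were lower in HCC70 and 3 higher, where 40.0% of all tested genes were lower and 39.2% higher.

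Among 21 regulators of ribosomal protein synthesis, 3 rose in HCC70, where 2.55% of all tested genes rose. In MDA-MB-231 4 rose and 2 fell, where 6.65% of all tested genes rose and 7.96% fell. Their median log2 fold change was 0.07 in HCC70 and -0.01 in MDA-MB-231, beside -0.01 for all tested genes in each line. DDIT4, a brake on mTOR and a known glucocorticoid target, averaged 83.5 ± 3.35 CPM with dexamethasone and 34.96 ± 2.85 CPM in vehicle in HCC70, and 235 ± 16.1 CPM with dexamethasone and 75.97 ± 9.33 CPM in vehicle in MDA-MB-231 (SD, n = 3 each). MYC rose by 0.99 ± 0.07 on the log2 scale in both lines (SE, adjusted p 3.08e-06 in HCC70 and 4.46e-07 in MDA-MB-231). LARP1, which binds TOP mRNAs, rose in HCC70 by 0.29 ± 0.06 (SE, adjusted p 0.0196) and had -0.04 ± 0.06 in MDA-MB-231, a difference of 0.33 ± 0.09 (SE, adjusted p 0.0328). PDCD4, an inhibitor of translation initiation, rose in MDA-MB-231 by 0.50 ± 0.07 (SE, adjusted p 0.000293), while RPTOR, a subunit of the mTOR complex, and SESN2, a brake on it, fell there, with log2 fold changes of -0.38 ± 0.11 and -0.50 ± 0.14 (SE).

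Translation factors and other genes with TOP mRNAs, 20 in all, had 0 calls in HCC70 and 1 rise in MDA-MB-231, NAP1L1, a histone chaperone (0.27 ± 0.07 SE, adjusted p 0.0249). In vehicle 16 of the 20 were lower in HCC70 and 2 higher, where 40.0% of all tested genes were lower and 39.2% higher. EEF1A1, the factor that delivers transfer RNA to the ribosome, averaged 1141 ± 50.7 CPM in HCC70 vehicle and 3812 ± 98.3 CPM in MDA-MB-231 vehicle, and PABPC1, the poly(A)-binding protein, went the other way, at 2154 ± 193 CPM in HCC70 vehicle and 1287 ± 109 CPM in MDA-MB-231 vehicle (SD, n = 3 each). The proteins of the mitochondrial ribosome, 75 tested genes, had 1 rise in HCC70 and 5 in MDA-MB-231, with 0 falls in either. Beside both lists, 2.55% of all tested genes rose and 1.40% fell in HCC70, and 6.65% rose and 7.96% fell in MDA-MB-231. In vehicle 50 genes of the mitochondrial ribosome were lower and 15 higher in HCC70, where 40.0% and 39.2% of all tested genes were. Their median was -0.40, where that of the cytosolic members was -0.76. MRPL3, a large subunit protein of the mitochondrial ribosome, rose in MDA-MB-231 by 0.37 ± 0.06 (SE, adjusted p 0.000968).

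Among 10 genes of the p53 pathway, 1 rose in HCC70 and 2 in MDA-MB-231, where RPS27L was 1 of them. The other, CDKN1A, a cell cycle inhibitor that glucocorticoids are also known to induce, averaged 211 ± 6.44 CPM with dexamethasone and 60.1 ± 2.04 CPM in vehicle in MDA-MB-231 (SD, n = 3 each). Among markers of the line types, of 8 basal epithelial markers 1 rose in HCC70, and 2 rose and 1 fell in MDA-MB-231, and of 8 epithelial and mesenchymal markers 1 rose in HCC70, and 1 rose and 1 fell in MDA-MB-231. Luminal and receptor markers, 5 tested, had 0 calls for dexamethasone in either line. Of 8 markers of other cell types in the table, 5 were tested, with 0 calls in HCC70 and 1 fall in MDA-MB-231. The blood markers HBB, CD3E and PTPRC stood at or under 0.187 CPM in every group, while CD68 and COL1A2 were the most abundant of that list. In vehicle 4 of its 5 tested genes were lower in HCC70 than in MDA-MB-231 and 0 higher, with a median log2 difference of -1.89. Of all tested genes, 40.0% were lower and 39.2% higher there. For the p53 and marker lists, the shares of all tested genes were 2.55% rising and 1.40% falling in HCC70 with dexamethasone. In MDA-MB-231 they were 6.65% and 7.96%.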

How the data were processed

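RNA was measured in 12 libraries, 3 in each of 4 groups. Libraries were made from polyA-selected RNA with a transposase and without strand information, and sequenced in pairs, per the labels' protocols. The authors deposited one table of raw counts per gene, with no scaling between libraries; the tool that made the counts is not given in the sources used here. TopHat 1.4.1, Cufflinks 1.3.0, bedtools and the build hg19 are named in the submitters' processing notes. All columns were mapped to a library, and 11496 of 51838 genes had no count in any library. Libraries held 106345287 to 123218973 counts, and counting intervals and floors cover counting error only.

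Genes were kept by edgeR's filterByExpr with a minimum count of 10, scaled by TMM, and tested with edgeR's quasi-likelihood test over all 4 groups at a Benjamini-Hochberg adjusted p of 0.05 (edgeR 4.0.16, limma 3.58.1, R 4.3.3; prior degrees of freedom 5.64). DESeq2 1.42.0 was an alternative, and the code was tested on simulated data. The members and gene lists were chosen with earlier results of these data known. Genes named in the text were, for the members, the 5 largest rises and falls in each comparison, the 5 highest and 5 lowest by CPM, paralog pairs, and RPLP0, RPLP1, RPLP2, RPSA, RPS6 and RPL13A. For other lists they were the largest changes among calls and the most abundant genes. Levels per coding length were added after seeing the data. GC content, lengths and exon overlaps came from a GENCODE annotation of a later build than the counts, matched by gene, and start windows from RefSeq (GRCh38.p14). Alternatives were other scalings, filters and tests, a replicate block, each line alone, a GC and length offset, and leaving out each library. Values of a few single genes are not reported here.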

Additional observations from a re-analysis of the deposited data

Results flagged for a closer look

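The response to dexamethasone differed between the lines by a test of the difference itself, edgeR's interaction of line and treatment over 12 libraries. It was lower in HCC70 than in MDA-MB-231 for 23 of 80 members (28.8%), where 5.09% of all tested genes had a lower one. The difference was -0.69 on the log2 scale for RPS29, -0.54 for RPS20, -0.53 for RPS3A, -0.52 for RPL37 and -0.51 for RPL24, each with an adjusted p under 0.05. Neither line's own change passed for RPS29, RPS20, RPL37 or RPL24, and for RPS3A that in MDA-MB-231 did.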

How the results depend on the processing

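In MDA-MB-231 the 11 rises became 17 with DESeq2 size factors, 6 with library size only, 23 with the strict filter (5 CPM in 3 libraries), 23 with DESeq2's Wald test, 3 with the replicate block, 0 with the line fitted alone, 20 with the GC and length offset, 28 with that offset and the replicate block, and 38 without vehicle 1 and dexamethasone 2, which stood apart from their groups. The 23 lower responses in HCC70 became 46, 41, 38 and 7 with library size only, the strict filter, the Wald test and the replicate block, 36 with the offset and block, and 53 without those MDA-MB-231 libraries. Over all genes the main fit gave 6.65% rises in MDA-MB-231 and 5.09% lower responses. The strict filter gave 14.2% and 16.3%, and the fit without those libraries 8.68% and 9.12%. Library size only gave 5.99% and 8.88%, the Wald test 7.86% and 7.36%, and the replicate block 4.22% and 2.27%. With the block the members' shares were 3.75% and 8.75%. Rises over all genes were 6.99% with DESeq2 size factors, 4.32% with the line fitted alone and 8.74% with the offset. The offset with block gave 7.34% rises and 5.14% lower responses over all genes. The 8 members higher in HCC70 vehicle became 3 with library size only, 3 with the block, and 5 with the offset, with or without the block. Over all genes 39.2% were higher there in the main fit and 37.3% with library size only. The block gave 34.1%, the offset 39.4% and the offset with block 35.2%. The 0 falls in HCC70 became 12 with the line fitted alone and 1 without those MDA-MB-231 libraries. In these fits 7.13% and 4.67% of all genes fell. Leaving out 1 library gave 0 to 49 rises in MDA-MB-231, 0 to 57 lower responses, 3 to 8 members higher in HCC70 vehicle and 0 to 1 falls in HCC70. Over all genes those fits gave 4.10% to 10.09% rises in MDA-MB-231 and 2.37% to 9.29% lower responses. They gave 37.3% to 39.0% higher in HCC70 vehicle and 0.446% to 2.19% falls in HCC70. The cause was not tested. With the offset, RPL8 turned to 0.19 in MDA-MB-231, -0.35 between the lines and -0.27 in the difference, RPS2 to -0.11 and RPL13 to -0.037 between the lines; with the offset and block, the line values were -0.36, -0.21 and -0.11. Deviations from group means were correlated between dexamethasone and vehicle libraries of a line. Same-numbered libraries had correlations of -0.29, 0.17 and -0.01 in HCC70 and -0.70, -0.33 and 0.46 in MDA-MB-231. There, dexamethasone 2 with vehicle 1 had 0.81 and dexamethasone 1 with vehicle 3 had 0.73. These values cannot settle whether replicate numbers pair the libraries, since libraries of a group also differed along GC content. The 65 lower members between the lines stayed at 65 to 66 with any 1 library left out. Depth limits RPL3L and RPL10L, with 0 to 13 counts a library, which were not tested.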
